A study of Homo sapiens with 6 samples.

Results

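The genes described here encode heat shock chaperones that work in different compartments of the cell: HSPB1 and BAG3 in the cytosol, HSPE1 in the mitochondrial matrix and SERPINH1 in the endoplasmic reticulum. They were chosen by name, as the rows present in the deposited table out of 5 genes (HSPB1, HSPE1, HSPD1, SERPINH1 and BAG3). The table held 4 of them among its 1877 genes, and HSPD1 was not analysed here. LP-1 is an established line of human multiple myeloma, a cancer of plasma cells. Its RNA was sequenced in 3 libraries of cells depleted of the ubiquitin ligase RNF5 with short hairpin RNA and 3 libraries of control cells (Ctrl), which the series' design text describes as non-target. Both groups were grown in the same medium with no other agent named. Hairpin number, harvest time and any separate culturing of replicates were not given in the sources used here, so p-values measure only the spread between these libraries.

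Heat shock chaperones keep unfolded proteins from aggregating and help them fold. Many of their genes are switched on by the transcription factor HSF1, which leaves its chaperone partners when unfolded protein accumulates and binds heat shock elements, arrays of inverted GAA units in promoters. HSPB1 (HSP27) is a small heat shock protein that binds unfolded proteins without ATP and also associates with actin. BAG3 releases nucleotide from HSP70 proteins and links them to small heat shock proteins and to autophagy. HSPE1 (HSP10) is the lid of the mitochondrial folding chamber built by HSPD1 (HSP60), and the 2 genes lie head to head. SERPINH1 (HSP47) is a serpin without known protease inhibition that binds procollagen. Myeloma cells secrete large amounts of protein and are known to depend on chaperones.

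Heat shock element letters were looked for in the 250 bases before each RefSeq start (GRCh38.p14), as 2 adjacent units (GAANNTTC or TTCNNGAA) or 3 (either form followed by 2 bases of any kind and its own first unit again). Each 2-unit form reads the same on both strands, the 3-unit forms are each other's reverse complement, and every 3-unit match also holds 2-unit matches. The stretches are shown because they hold the matches described next, with the matching letters in capitals, 5′ to 3′ on the strand of the gene named.
HSPB1 (chr7:76302480-76302509, plus strand): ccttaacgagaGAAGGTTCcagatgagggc
SERPINH1 (chr11:75562168-75562197, plus strand): tttccaactTTCCAGAAGTTTCtcgggacg
HSPD1 (chr2:197500061-197500090, minus strand): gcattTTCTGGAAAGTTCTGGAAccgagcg

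HSPB1 had 1 match of 2 units, whose first base lay 182 bases before the start. SERPINH1 had a match of 3 units, whose first base lay 76 bases before 1 of its 2 starts, and which is in untranslated exon sequence of 3 SERPINH1 transcripts in GENCODE. The window of the other SERPINH1 start held no match. The window of HSPE1 itself held none, nor did that of BAG3, which says only that these letters are not there. In the head-to-head arrangement with HSPD1, the capitals shown for HSPD1, a run of 4 units, stood 245 to 228 bases before 1 of the 2 HSPD1 starts and 294 to 311 bases before the HSPE1 start, just outside the HSPE1 window. GENCODE places these letters in an untranslated exon of 1 HSPE1 transcript and of 1 HSPD1 transcript. Of 35114 windows of this length in the table, 11.6% held a 2-unit match and 0.441% a 3-unit match. A match is a description of the letters and not a measured binding site.

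All values below are normalized abundances as deposited, with a scale not given in the sources used here, so levels are compared between libraries and not between genes. The authors had selected every row of the table as changed, the smallest absolute log2 fold change being 1.0002 and the largest adjusted p 0.0499. A gene of this table therefore had to differ, and the tests are no independent evidence of a change. Changes were tested with limma on log2(value + 1) over the 1290 genes that reached a value of 1 in 3 or more libraries. Of these, 97.7% were called at a Benjamini-Hochberg adjusted p under 0.05, 42.0% as lower and 55.7% as higher in the knockdown. All 4 chaperone genes entered this fit, and all 4 were called lower. The authors' deposited table also listed all 4 as lower, as it did 50.8% of its genes. RNF5 itself was at 88.4 ± 7.03 in the knockdown and 1497 ± 218 in the control libraries (SD, n = 3 each), 5.90% of the control level. The listed values summed to between 116843 and 122079 in the knockdown and between 90825 and 93975 in the control libraries, which is not a depth, and the depth is unknown. No gene of 11 T and NK cell, 9 myeloid or 9 erythroid and platelet markers was listed, and 1 of 8 epithelial and packaging cell markers was (CLDN4, lower). Of 11 fibroblast markers 2 were listed, COL1A1 and SPARC, which are described below. A marker that is not listed may be unchanged, so its absence does not show that such cells were absent. Of 18 plasma cell markers, 5 were listed (ITGA8, SDC1, ITGB7, CD28 and TXNDC5) and all 5 were higher. SDC1 (CD138) was at 35.5 ± 1.16 in the knockdown and 12.1 ± 2.66 in the control libraries. The other 13 were not listed, so these 5 do not describe the whole marker list. TXNDC5 is also on the list of endoplasmic reticulum chaperones below.

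HSPB1 (ENSG00000106211, chromosome 7) had the largest fall of the 4. Its abundance was 208.03, 157.27 and 198.08 in knockdown libraries 1, 2 and 3, and 1218.97, 1598.12 and 1664.57 in control libraries 1, 2 and 3. Every knockdown library lay far below every control library, and the lowest control library was number 1. The knockdown mean of 188 ± 26.9 was 12.6% of the control mean of 1494 ± 240 (SD, n = 3 each), a log2 fold change of -2.98 (SE 0.17, limma adjusted p = 2.81e-07). Of the 1290 tested genes, 0.388% had a lower log2 fold change. Of 11 small heat shock protein genes, HSPB1 was the only one listed, and the other 10 were not analysed here. In bulk RNA, fewer cells expressing a gene and less RNA per cell cannot be told apart, here and below.

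BAG3 (ENSG00000151929, chromosome 10), the other cytosolic gene, was lower at a much smaller size. In the knockdown libraries its abundance was 5.91, 6.28 and 6.55, against 19.20, 20.27 and 9.16 in the control libraries. The groups did not overlap, but control library 3 lay nearer to the knockdown values than to the other controls. The means were 6.25 ± 0.321 in the knockdown and 16.2 ± 6.13 in the control libraries (SD, n = 3 each), a log2 fold change of -1.17 (SE 0.27, limma adjusted p = 0.00125). Without control library 3 the log2 fold change was -1.52, and the fold of the means was 3.16 in place of 2.59. Like BAG3, BAG2 binds HSP70, and BAG2 inhibits STUB1, a ubiquitin ligase partner of HSP70. BAG2 was the other listed gene of 6 BAG genes. It fell to 7.12 ± 0.340 in the knockdown, against 13.4 ± 0.709 in the control libraries (log2 fold change -0.82, limma adjusted p = 0.000866).

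HSPE1 (ENSG00000115541, chromosome 2) was the mitochondrial gene of the group. In the knockdown libraries its abundance was 230.17, 205.33 and 190.12, against 418.63, 429.13 and 708.30 in the control libraries. The groups did not overlap, and control library 3 stood well above the other controls, the opposite of its place for BAG3. The means were 209 ± 20.2 in the knockdown and 519 ± 164 in the control libraries (SD, n = 3 each), a log2 fold change of -1.27 (SE 0.20, limma adjusted p = 0.000149). Without control library 3 the log2 fold change was -1.02, a fold of the means of 2.03 in place of 2.49. RefSeq names 28 pseudogenes of HSPE1 and a read-through gene, HSPE1-MOB4, with the same start, so part of the counted reads may belong to these, and none of them was listed. Of 20 mitochondrial chaperone and protease genes, HSPE1 was the only one listed, and none of 22 mitochondrial import genes was listed. A pseudogene of HSPD1, HSPD1P10, was listed at 0.04, 0.13 and 0.05 in the knockdown and 0.74, 0.49 and 0.48 in the control libraries. It was too low to test, and reads of HSPD1 and of its pseudogene can be exchanged.

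SERPINH1 (ENSG00000149257, chromosome 11), the collagen chaperone, was lower by a size close to that of HSPE1. In the knockdown libraries its abundance was 72.09, 63.58 and 78.69, against 173.48, 165.92 and 123.30 in the control libraries. The groups did not overlap, and control library 3 was the lowest control. The means were 71.5 ± 7.58 in the knockdown and 154 ± 27.1 in the control libraries (SD, n = 3 each), a log2 fold change of -1.09 (SE 0.18, limma adjusted p = 0.000177). Without control library 3 the log2 fold change was -1.24. Of 25 collagen chaperone and modifying enzyme genes, LOXL2, a lysyl oxidase that cross-links collagen, was the other one listed. It fell to 2.60 ± 0.257 in the knockdown, against 5.87 ± 2.08 in the control libraries (log2 fold change -0.88, limma adjusted p = 0.00451).

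Collagens are the known clients of SERPINH1, and whether each listed one is a client was not tested. The table held 7 collagen genes, of which 3 fell, 1 rose and 3 were too low to test. Among all tested genes 42.0% were lower and 55.7% higher. So few collagen genes, at low values, show no direction for collagens. COL7A1, the collagen of anchoring fibrils, fell to 2.63 ± 0.675 in the knockdown, against 5.55 ± 1.63 in the control libraries (log2 fold change -0.83). COL11A2, chosen after its values were seen like the next 2 genes, fell to 2.06 ± 0.383, against 8.36 ± 1.73 in the control libraries (log2 fold change -1.60). COL14A1 fell to 0.567 ± 0.0473, against 3.27 ± 0.918 in the control libraries (log2 fold change -1.42, fold of the means 5.78). COL22A1 rose to 2.36 ± 0.227, against 0.760 ± 0.0985 in the control libraries (log2 fold change 0.93, fold of the means 3.10). Adding 1 before the log understates changes at such low values. Of the genes too low to test, COL1A1 was at 0.217 ± 0.197 in the knockdown and 0.593 ± 0.125 in the control libraries. COL21A1, also named after its values were seen, was at 0.163 ± 0.206 in the knockdown and 0.4 ± 0.0985 in the control libraries. COL19A1, named likewise, was at 1.34 ± 1.80, with 3.4 in knockdown library 3, against 0.51 ± 0.249 in the control libraries. The authors listed all 3 as lower, which for COL19A1 is opposite to its library means. Fibroblasts also express SERPINH1, COL1A1 and SPARC, and of 11 fibroblast markers these last 2 were listed. The summed level of both lay between 0.07 and 0.68 in the knockdown libraries and between 8.42 and 24.88 in the control libraries, where nearly all of it was SPARC. The other 9 were not analysed here, and the part of such cells in the SERPINH1 result was not tested.

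**Figure D1:**
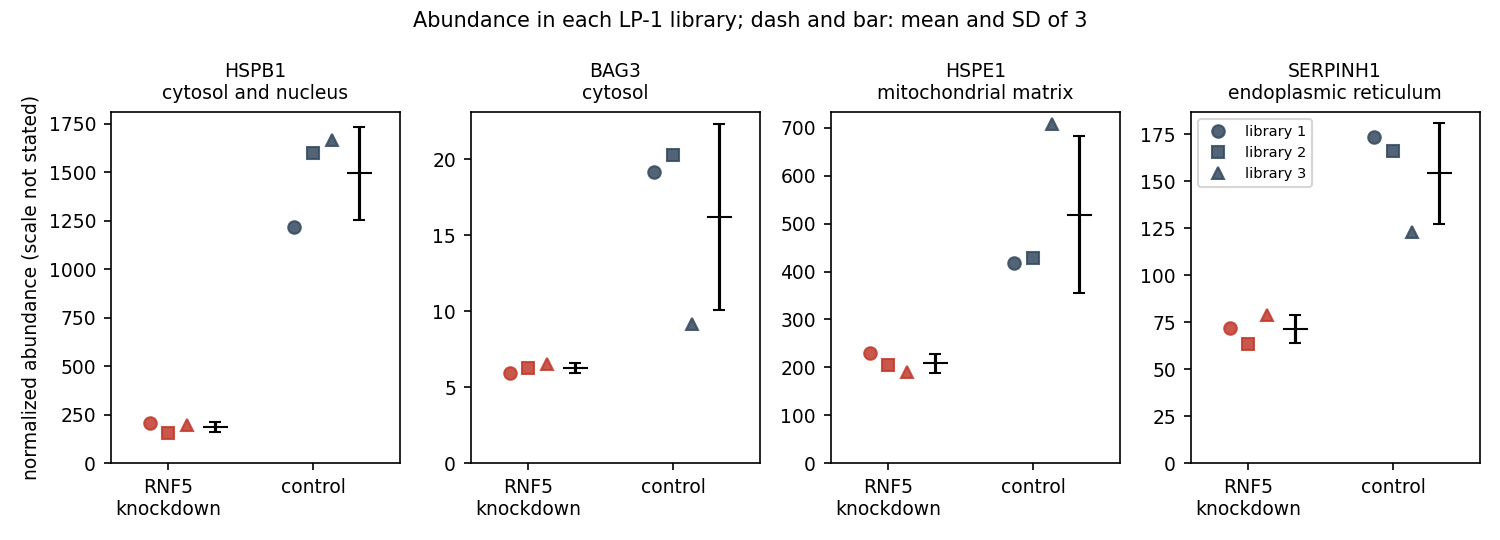
Normalized abundance of HSPB1, BAG3, HSPE1 and SERPINH1 (vertical axes, each from 0) in the 3 knockdown and 3 control libraries, with the mean and SD of each group beside the points. The groups do not overlap for any of the 4 genes, and control library 3 is the highest control for HSPB1 and HSPE1 and the lowest for BAG3 and SERPINH1.

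The 3 knockdown values lay below the 3 control values for each of the 4 genes. Non-overlap was the rule in this table, with 93.2% of all listed genes not overlapping and 45.5% not overlapping and lower. The exact 2-sided permutation test over libraries gave p = 0.1 for every member, and a design of 3 against 3 cannot give less. In the authors' deposited table the fold was 6.77 for HSPB1, 2.96 for BAG3, 2.69 for HSPE1 and 2.67 for SERPINH1, all as lower in the knockdown. The library means gave 7.95 for HSPB1, 2.59 for BAG3, 2.49 for HSPE1 and 2.16 for SERPINH1. HSPB1 stood apart from the other 3 genes by either measure.

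Ratios between members within a library were compared next, because any scaling of a library cancels in them. HSPB1 over HSPE1 in the knockdown libraries was 0.904, 0.766 and 1.04, against 2.91, 3.72 and 2.35 in the control libraries. The groups did not overlap, and the mean log2 ratio differed by -1.71 (exact 2-sided permutation p = 0.1, adjusted over 3 pairs 0.15, lower in 3 of 3 knockdown libraries). HSPB1 over SERPINH1 in the knockdown libraries was 2.89, 2.47 and 2.52, against 7.03, 9.63 and 13.5 in the control libraries. The groups again did not overlap, with a difference of -1.89 (exact 2-sided permutation p = 0.1, adjusted 0.15, lower in 3 of 3). HSPB1 thus fell further than either organelle chaperone in every knockdown library, by a test that cannot pass 0.05 with 3 against 3.

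Between the 2 organelle chaperones no difference was detectable. SERPINH1 over HSPE1 in the knockdown libraries was 0.313, 0.310 and 0.414, against 0.414, 0.387 and 0.174 in the control libraries. The groups overlapped, control library 3 lay below all others, and the mean log2 ratio differed by 0.18 (exact 2-sided permutation p = 0.9). Without control library 3 the difference was -0.23, so its direction rested on that library. The SD of the control log2 ratios was 0.70, larger than the difference, so these libraries do not show that the 2 genes changed by the same amount. BAG3 over HSPE1 differed by -0.02 and BAG3 over SERPINH1 by -0.19, both with overlapping groups. BAG3 over HSPB1 was higher in the knockdown by 1.70, with groups that did not overlap. The 3 pairs with BAG3 were added after its values were seen and carry no p.

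**Figure D2:**
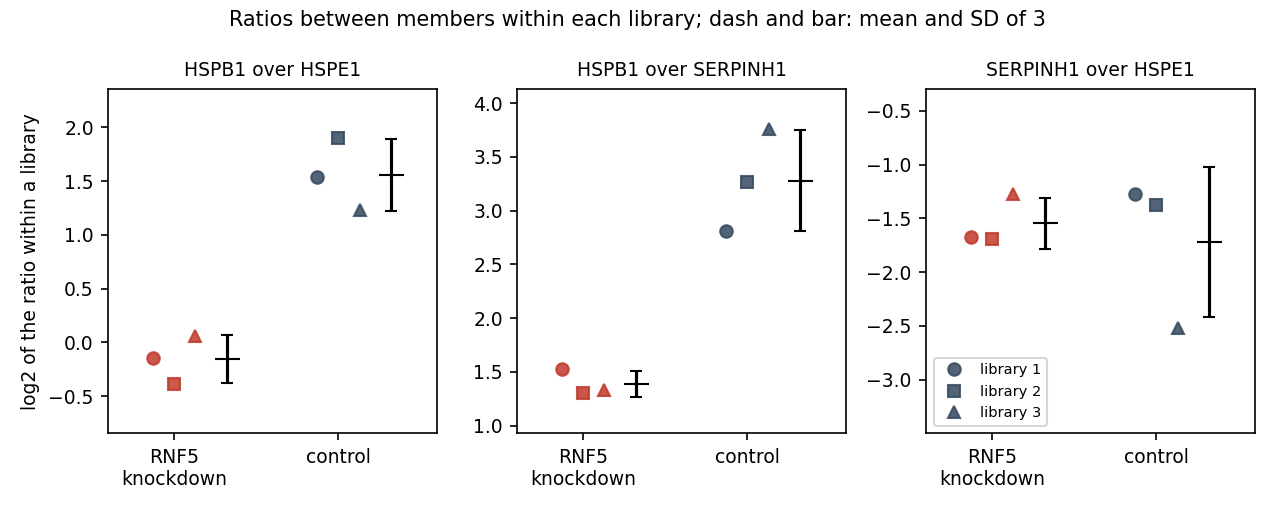
The log2 ratio of 2 members within each library (vertical axes, all spanning the same log2 range) in knockdown and control libraries, with the mean and SD of each group. Both ratios with HSPB1 are lower in all 3 knockdown libraries, while SERPINH1 over HSPE1 overlaps between the groups and is lowest in control library 3.

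Control library 3 lay above the other controls for HSPE1 and HSPB1 and below them for SERPINH1 and BAG3, and over the table its place moved with transcript length. Over 598 listed genes with a mean of at least 5, this library was the lowest control in 428 and the highest in 95. With genes in 4 nearly equal groups by transcript length, the median log2 ratio of control library 3 to the mean of control libraries 1 and 2 was 0.02 in the shortest group (207 to 1251 bases), then -0.31, -0.44 and -0.50 in the longest group. HSPE1, at 570 bases, had a ratio of 0.74 and HSPB1, at 718 bases, of 0.24. SERPINH1, at 2283 bases, had a ratio of -0.46 and BAG3, at 2571 bases, of -1.03. PFDN2, a subunit of the cytosolic chaperone prefoldin with 677 bases, had 0.61. With a trend on length taken off each library, the fold changes of HSPB1, BAG3, HSPE1 and SERPINH1 were -3.26, -1.33, -1.61 and -1.22 on the log2 scale. This check was chosen after the data were seen. With it, the median log2 fold change over tested genes was 0.47, against 0.73 in the main fit. The check changed the members' ratios in control library 3 unevenly. With control libraries 1 and 2 averaged on the log2 scale, the ratio was -0.19 after it and -0.46 before it for SERPINH1, and -0.74 after it and -1.03 before it for BAG3, so both moved toward 0. It was 0.80 after it and 0.74 before it for HSPE1, and 0.34 after it and 0.25 before it for HSPB1, so both moved away from 0. The part of this library's length trend in the members' values was not tested further.

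**Figure D3:**
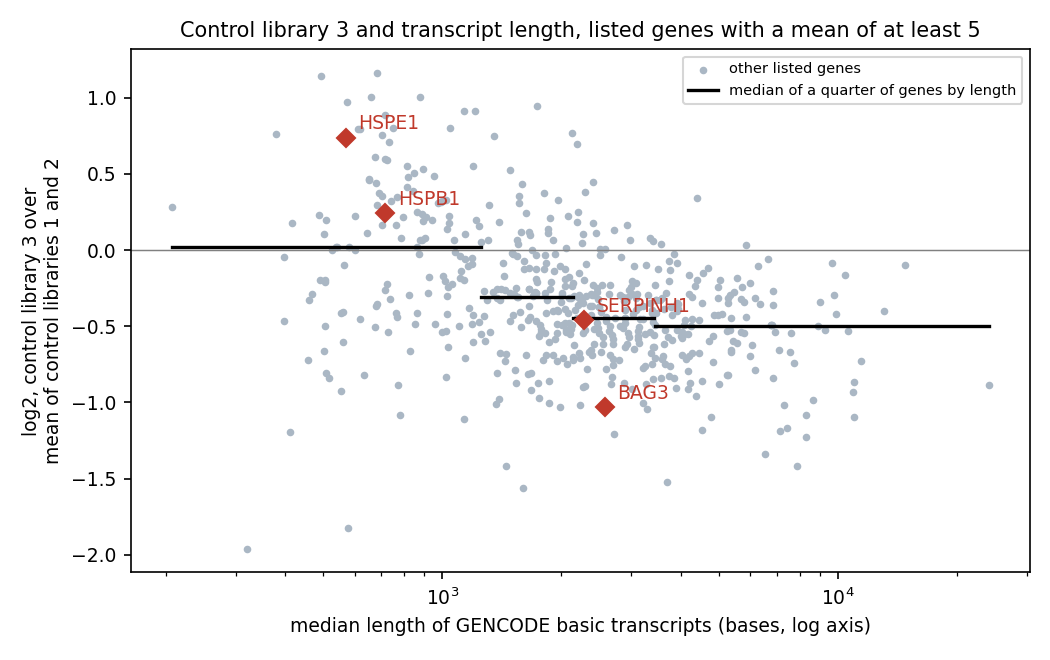
The log2 ratio of control library 3 to the mean of control libraries 1 and 2 (vertical axis) against transcript length in bases (log axis) for 562 listed genes with a length and a mean of at least 5. Black lines are medians of 4 nearly equal groups by length, which run from 0.02 to -0.50, and HSPE1 and HSPB1 lie above 0 while SERPINH1 and BAG3 lie below it.

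The genes most like each member over the 6 libraries were named by the root mean square difference of log2(value + 1), centred on each gene's mean, among 535 named genes with a mean of at least 5. HSPB1 was closest to HSPA1B (0.35), HSPH1 (0.40), SRXN1 (0.43), DNAJB1 (0.45) and OSGIN1 (0.45), of which HSPA1B, HSPH1 and DNAJB1 encode cytosolic chaperones. Each of them was lowest among the controls in control library 3, where HSPB1 was highest. These differences were larger than those of the genes closest to the other members. HSPE1 was closest to RPL22L1 (0.06), CKS2 (0.12), ZFAS1 (0.13), NDUFAF2 (0.14) and MRPS6 (0.15), each of them highest in control library 3. Of these, only the 2 least close encode mitochondrial proteins. NDUFAF2 encodes an assembly factor of complex I and MRPS6 a protein of the mitochondrial ribosome. SERPINH1 was closest to C6orf136 (0.09), LONRF3, NINJ1, PPP3CC and SPR (0.12). BAG3 was closest to PLK1 (0.13), SQSTM1 (0.14), LONRF3, MIDEAS and PPP1R15A (0.15), where SQSTM1 encodes the autophagy receptor p62. Among the members themselves, SERPINH1 was the 23rd closest gene to BAG3, and BAG3 the 102nd closest to SERPINH1. HSPE1 was the 47th closest to HSPB1, and HSPB1 the 260th closest to HSPE1. LONRF3 was the only gene among the 5 closest of 2 members, SERPINH1 and BAG3. The values rest on 6 points that share the group difference.

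Other chaperone genes give the members their setting, as counts only. Over 9 chaperone lists with 133 genes, 21 were listed, all 21 were tested, 20 fell and 1 rose, against 42.0% lower and 55.7% higher among all tested genes. Their median log2 fold change was -1.17, against 0.73 over all tested genes. Without HSPB1, BAG3 and HSPE1 the lists held 18 listed genes, of which 17 fell, with a median of -1.02. The authors chose these genes on the same libraries, and the lists were drawn up with earlier results known, so the counts are a description. HSPB1 lay among the largest falls and the other 3 members near the median.

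The cytosolic HSP70, HSP110, HSP90 and HSP40 list held 11 listed genes of 21, and all 11 fell. Log2 fold changes ran from -4.06 for the inducible HSPA6 to -0.70 for HSPA1L. HSPH1 (-3.23), a nucleotide exchange factor of HSP70, was nearest to HSPB1 in size, followed by HSPA1B (-2.72), DNAJB1 (-2.38) and HSP90AA1 (-2.30). HSPA8 (-1.17), DNAJA1 (-1.07), HSPA4L (-0.98), DNAJB4 (-0.91) and HSPA1A (-0.73) were in the range of HSPE1, SERPINH1 and BAG3 or smaller. HSPA1A and HSPA6 had knockdown means of 0.920 and 0.713, where adding 1 before the log understates a fall. Their folds of the means were 2.37 and 38.8. HSPA1A, HSPA1B and HSPA1L have near-identical stretches, so the split of reads between them is uncertain. Of 12 HSP90 co-chaperone genes 3 were listed and all 3 fell, FKBP4 (-1.60), STIP1 (-0.95) and CHORDC1 (-0.66). Of 14 cytosolic chaperonin and prefoldin genes, which hold the cytosolic counterpart of the HSPD1 and HSPE1 chamber, PFDN2 (-0.96) was listed and fell. None of 5 heat shock factors and regulators was listed.

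In the endoplasmic reticulum the listed chaperones went in opposite directions. DNAJB9, a co-chaperone of HSPA5 induced by unfolded protein there, fell to 53.1 ± 4.68 in the knockdown, against 133 ± 12.6 in the control libraries (log2 fold change -1.31, limma adjusted p = 2.99e-05). TXNDC5, a disulfide isomerase, rose to 1552 ± 58.6, against 659 ± 174 in the control libraries (log2 fold change 1.27, limma adjusted p = 9.73e-05). The other 20 of 22 genes on that list were not analysed here. SERPINH1 was thus lower like DNAJB9 and unlike TXNDC5.

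**Figure D4:**
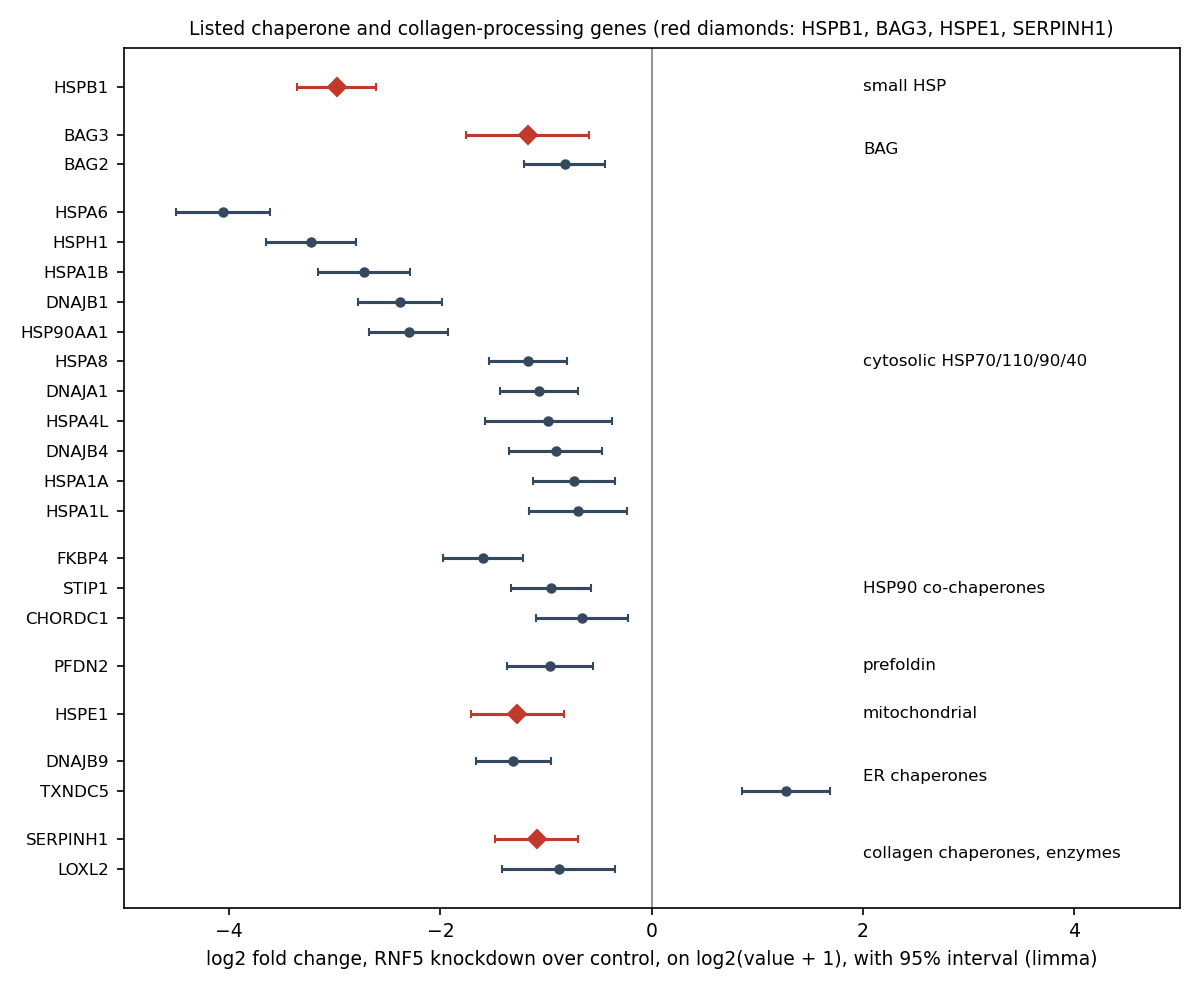
Log2 fold change of RNF5 knockdown over control on log2(value + 1) with its 95% interval from limma (horizontal axis) for every tested gene of the chaperone lists and of the collagen chaperone and enzyme list, grouped by list. HSPB1 lies among the larger cytosolic falls, BAG3, HSPE1 and SERPINH1 lie between -1.27 and -1.09, and TXNDC5 is the only gene above 0.

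RefSeq promoter windows were found for 19 of the 21 listed chaperone genes, FKBP4 and PFDN2 being the others. A 2-unit match stood in 13 of the 19 (68.4%), against 13.97% of the 27303 genes with a window and 12.8% of the 764 tested listed genes with one. Over the 357 tested genes called lower with a window, the share was 14.8%, near that of all genes. Heat shock elements are known from many chaperone genes, so a high share among them is no result of the knockdown. A 3-unit match stood in 4 of the 19 (HSP90AA1, HSPA6, HSPA8 and CHORDC1), against 0.557% of those 27303 genes. It stood in 0.785% of the 764 tested listed genes and in 1.68% of the 357 called lower. Both shares are 6 genes, which include the 4 chaperone genes named. SERPINH1, which is on the collagen list, had a 3-unit match as shown above. Of the listed cytosolic genes only HSPH1, with the second largest fall, had no match in its window. All others had one, from HSPA6 with the largest fall to HSPA1L with the smallest. Whether matches go with the size of a fall was not tested.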

How the data were processed

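RNA of 3 RNF5 knockdown and 3 control LP-1 libraries was analysed from 1 deposited table, with groups and replicate numbers from the sample titles. Bowtie 0.12.2 and build hg19 appear in the submitters' processing notes, with no step named. Per the file headers, the authors deposited a normalized signal per gene and library, a fold ratio, its log2 and p-values with adjusted p-values; scale and test were not given in the sources used here. No common step was found that would give whole reads, so a count test was replaced by limma 3.58.1 (R 4.3.3) with a mean-variance trend, the group as the only term and log2(value + 1), which understates changes of low genes. The log2 ratio of library means exceeded the authors' log2 fold change by a median of 0.17 over 431 genes with both means at least 5. Exact permutation tests used scipy 1.17.1. The procedure was checked on simulated data with independent noise and most genes unchanged. This table holds only genes selected as changed, so the check does not cover that selection. Lengths are medians over basic transcripts of GENCODE release 29, matched for 91.6% of genes. Named genes were RNF5, the members, listed genes of the chaperone and collagen lists and the 5 genes most like each member; any other was chosen after its values were seen. The lists also covered markers of plasma cells and of other cell types. The members and lists were chosen with earlier results of these data known. Same-numbered libraries did not deviate together (correlations of -0.16, -0.07 and -0.08, against -0.03 to 0.11 for the other pairs). Deviations from means of only 3 libraries cannot exclude a pairing, so the main fit used none.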

Additional observations from a re-analysis of the deposited data

How the results depend on the processing

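HSPB1, HSPE1, SERPINH1 and BAG3 were lower and called under all 15 alternatives each, the authors' own log2 values included, with log2 fold changes of -3.28 to -2.76, -1.61 to -1.02, -1.42 to -0.997 and -1.56 to -0.87 and limma adjusted p of at most 0.00811. Because the authors selected every row on these same libraries, their own log2 values could not fail here. With 97.7% of tested genes called in the main fit, these calls are no independent evidence of a change. The alternatives for BAG3 and the removal of a length trend were chosen after seeing the data. The chaperone lists kept counts of 20 lower and 1 higher in all 14 fits. The median log2 fold change over tested genes was 0.73 in the main fit. It was 0.62 after scaling by the offset from the authors' fold changes and 0.53 after scaling to equal library medians. The members' falls became larger under both. Without a filter on low values 880 genes in place of 542 were lower, since more genes were tested. Leaving out 1 library gave 518 to 553 lower genes. The difference in SERPINH1 over HSPE1 ran from -0.23 to 0.40 when 1 library was left out, and reversed to -0.23 without control library 3 (exact permutation p = 0.4). With a replicate block limma called 1272 genes in place of 1260, and HSPB1 kept -2.98, HSPE1 -1.27 and SERPINH1 -1.09. The depth is unknown, so no counting error can be given.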
